A study of Mus musculus with 9 samples.

Results

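Egr1, Myc, Pou2f2 and Ier5l are 4 genes of transcriptional regulators or immediate early gene families, taken by name from a table of read counts for 311 genes. They were selected on the deposited counts themselves, by their difference between the groups compared here, so every difference between the groups is given as a description and none is tested. The cells were RAW264.7, a mouse line labelled as macrophage and grown in serum-containing medium. In 5 libraries the cells had been transfected with mimics of let-7c-5p, and in 4 libraries they carried the label negative control, without a named agent. The labels call the libraries of each group biological replicates of the 1 cell line, give no time after transfection, and do not say whether the replicates were separate cultures. The comparison bears on what let-7c-5p does to the polarized state and the functions of macrophages.

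MicroRNAs of the let-7 family guide Argonaute proteins to messenger RNAs, mostly through pairing of their seed to the 3′ untranslated region (UTR), and lower the stability and translation of those messages. Egr1 encodes a zinc finger transcription factor of the immediate early class, induced within minutes by growth factors and inflammatory signals through the MAPK-ERK cascade. Myc encodes the basic helix-loop-helix factor that, with Max, drives genes of ribosome production, metabolism and cell division, and human MYC is a described let-7 target. Pou2f2 encodes Oct-2, a POU-domain factor best known from B cells that binds the octamer element and is also made in macrophages. Ier5l is a gene of the immediate early response 5 family whose product is little characterised.

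The mature let-7c-5p sequence is shown because its seed defines the sites searched for in the 4 genes. It has 22 bases, and its seed, bases 2 to 8, is in capitals. It comes from RefSeq, where Mirlet7c-1 (GRCm38.p6 chr16:77599672-77599693, plus strand) and Mirlet7c-2 (GRCm38.p6 chr15:85706616-85706637, plus strand) encode the same mature sequence.
mmu-let-7c-5p: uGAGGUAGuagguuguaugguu
This seed is shared by 11 mouse mature microRNA names in RefSeq, among them let-7a-5p, let-7b-5p and miR-98-5p.

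Of the 4 genes, Pou2f2 alone had a match to the let-7 seed in an annotated 3′ UTR (GENCODE M21, matched by gene ID). Pou2f2 had 8 coding transcripts with a 3′ UTR. In 2 of these the UTR was 5619 bases long and held 5 matches of at least 6 bases, of which 2 were 7mer-m8 sites, that is, matched to the whole seed. The 6 other transcripts, with UTRs down to 157 bases, held none. The 5 sites of the long UTR are printed below with the bases before them, the matched bases in capitals and their positions counted from the first base of the UTR.
Pou2f2, 7mer-m8 at 1291: tttctgctctggagtCTACCTC
Pou2f2, 6mer at 1519: ctatgatactggcagaTACCTC
Pou2f2, 7mer-A1 at 2060: ctttctcttcacaaaTACCTCA
Pou2f2, 7mer-m8 at 2976: gcccctgccctcatcCTACCTC
Pou2f2, 7mer-A1 at 3623: agataaggcaccaaaTACCTCA
The 7mer-A1 sites match seed bases 2 to 7 followed by an A. The counts are per gene, so they do not show which Pou2f2 transcripts the cells made. The annotated 3′ UTRs of Egr1 (up to 1216 bases), Myc (up to 466 bases) and Ier5l (1254 bases) held no match of 6 bases. Upstream of the 3′ UTR, 1 such match lay in Egr1, 1 in Myc and 2 in Pou2f2, and none lay in Ier5l. As background, taking the transcript with the longest 3′ UTR per gene, 26.4% of 21130 annotated coding genes had such an upstream match, and 10.1% had a 7mer-m8 or 8mer site in that UTR. Such a site stood in 7 of the 112 tested genes of the table that have an annotated 3′ UTR (6.25%). These were Pou2f2 and Tnfaip3, lower with the mimic, and Abcb9, Hal, Igf1, Slc22a18 and Xirp1, higher with the mimic. Matches of at least 6 bases, the criterion used for the 4 genes, stood in the longest 3′ UTR of 17 of 52 lower genes (32.7%), 11 of 60 higher genes (18.3%) and 25.2% of all annotated coding genes. The median length of that UTR was 2025.5 bases in the lower genes and 936.5 in the higher ones. A match of letters is not evidence that the microRNA bound there.

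The counts were deposited for a selection of genes. In each gene with counts in both groups, the mean counts of the groups differed by at least 0.98 on the log2 scale, and Myc, at -1.01, lay close to that limit. The totals, 43241 to 83053 counts in the mimic libraries and 40655 to 50083 in the control libraries, sum the selected genes only, and the sequencing depth is unknown. Gm10123 and Rpl17 together took 47.5% to 71.2% of the counts in the mimic libraries and 29.0% to 35.3% in the control libraries. Fold changes were fitted with edgeR after TMM scaling and describe each gene against the rest of the table. Of 149 genes that passed the filter on low counts, 148 (99.3%) had an adjusted p under 0.05 in edgeR's quasi-likelihood test, 76 higher (51%) and 72 lower (48.3%). All 4 genes passed the filter and are among the 148. Because the table was chosen for such differences, nothing is read from that count.

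Egr1, Myc and Pou2f2 were lower with the mimic and Ier5l was higher. In deposited counts each of the 4 genes had groups that did not overlap, as had 63.8% of the tested genes. In these bulk libraries, fewer cells that express a gene and less of its RNA per cell cannot be told apart.

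Egr1 (ENSMUSG00000038418) had 782, 759, 819, 775 and 1048 counts in mimic replicates 1 to 5, against 1316, 1670, 1932 and 2166 in control replicates 1 to 4. The first 4 mimic libraries lay between 759 and 819 counts, and replicate 5 stood above them while still below each control library. The mean was 837 ± 120 counts with the mimic (SD, n = 5) and 1771 ± 365 in the control (SD, n = 4). The log2 fold change, mimic over control, was -1.10 ± 0.22 (SE), a level 2.15-fold lower with the mimic. TMM scaling spread the mimic libraries, with a coefficient of variation of 28.2% after it and 14.4% before, and drew the control libraries together, with 7.5% after it and 20.6% before. Counting alone would give a coefficient of variation of 3.46% in the mimic group and 2.38% in the control group.

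Pou2f2 (ENSMUSG00000008496) had 593, 511, 487, 514 and 272 counts in mimic replicates 1 to 5, against 905, 1149, 1199 and 1247 in control replicates 1 to 4. Mimic replicate 5 was the lowest library for Pou2f2 and the highest of its group for Egr1. The mean was 475 ± 121 counts with the mimic (SD, n = 5) and 1125 ± 152 in the control (SD, n = 4). The log2 fold change was -1.33 ± 0.20 (SE), or 2.52-fold lower with the mimic. Pou2f2 had the largest decrease of the 4 genes, and placed 22nd by size among the 72 lower genes, whose median was -1.20. Egr1 placed 60th and Myc 65th. The order of Pou2f2 and Egr1 turned without mimic replicate 5, with log2 fold changes of -1.19 for Pou2f2 and -1.24 for Egr1. It also turned with the replicate number as a block, with -1.23 for Pou2f2 and -1.29 for Egr1. No control library has the number 5, so the block takes up mimic replicate 5, and this is not a separate setting. A microRNA gene, Mir6537, lies on the same strand within Pou2f2 and shares 35 of its 8243 exon bases.

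Myc (ENSMUSG00000022346) had 32, 48, 43, 46 and 43 counts in mimic replicates 1 to 5, against 69, 109, 85 and 79 in control replicates 1 to 4. The highest mimic library was below the lowest control library, on far fewer counts than those of Egr1. The mean was 42.4 ± 6.19 counts with the mimic (SD, n = 5) and 85.5 ± 17.0 in the control (SD, n = 4). Counting alone would give a SD of 6.51 counts in the mimic group, above the spread of the deposited counts and below that after TMM scaling, 8.74. In the control group it would give 9.25 counts, below the spread on both scales (25.5 after scaling). The log2 fold change was -1.09 ± 0.25 (SE), or 2.13-fold lower with the mimic.

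Ier5l (ENSMUSG00000089762) had 47, 68, 71, 65 and 131 counts in mimic replicates 1 to 5, against 39, 32, 24 and 31 in control replicates 1 to 4. Mimic replicate 5 again stood apart, and mimic replicate 1 came nearest to the control libraries. The mean was 76.4 ± 31.9 counts with the mimic (SD, n = 5) and 31.5 ± 6.14 in the control (SD, n = 4). The log2 fold change was 1.23 ± 0.37 (SE), or 2.34-fold higher with the mimic. After TMM scaling, under which 71.1% of the tested genes had groups that did not overlap, this was the 1 gene of the 4 whose groups overlapped, with 42.3 scaled counts in mimic replicate 1 against 51.9 in control replicate 1. The scaled values of the other mimic libraries, 55.7 to 156, lay above each control library. Without mimic replicate 5 the log2 fold change was 0.90 ± 0.28 (SE).

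**Figure D1:**
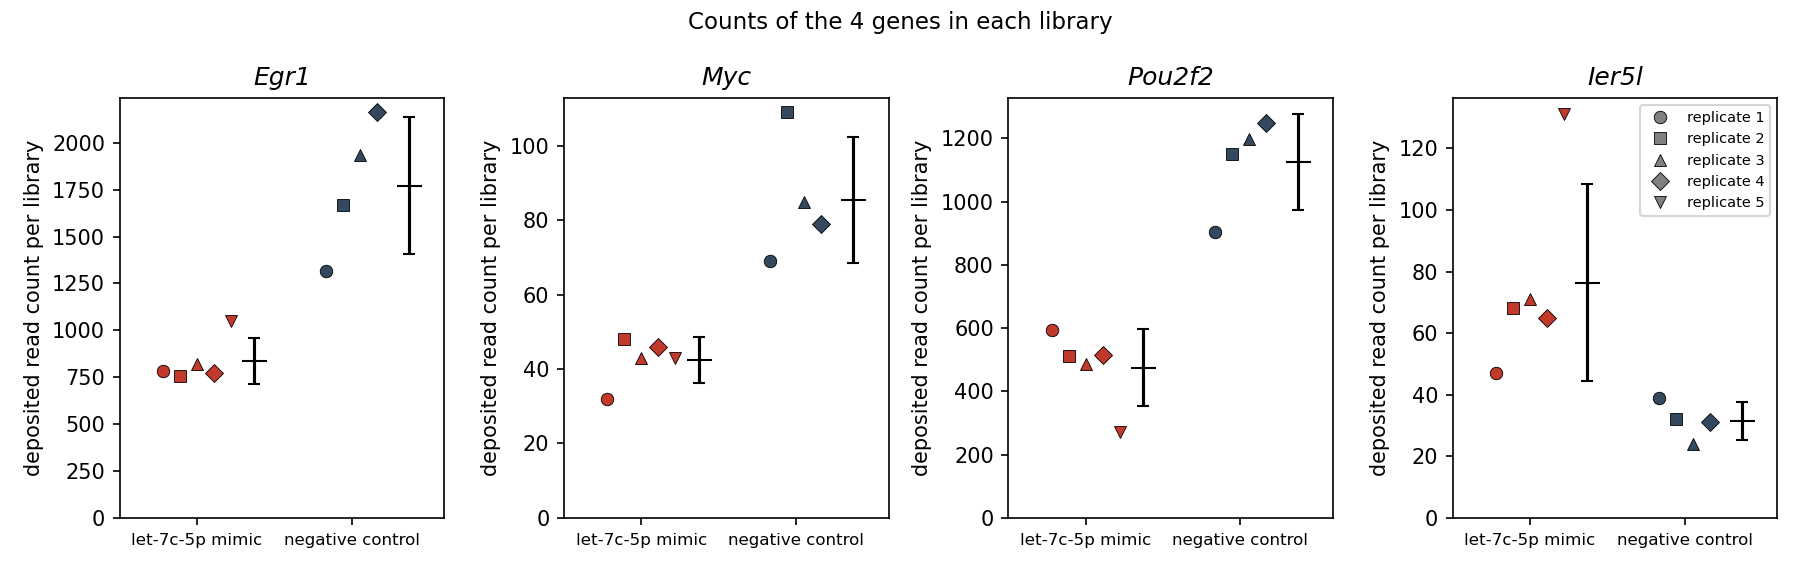
Deposited read counts of Egr1, Myc, Pou2f2 and Ier5l, one panel per gene, with one symbol per library (shape gives the replicate number), let-7c-5p mimic on the left and negative control on the right of each panel; the bar beside each group is the mean ± SD (n = 5 and n = 4). Egr1, Myc and Pou2f2 lie lower in each mimic library than in each control library, Ier5l lies higher, and mimic replicate 5 is the highest of its group for Egr1 and Ier5l and the lowest for Pou2f2.

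**Figure D2:**
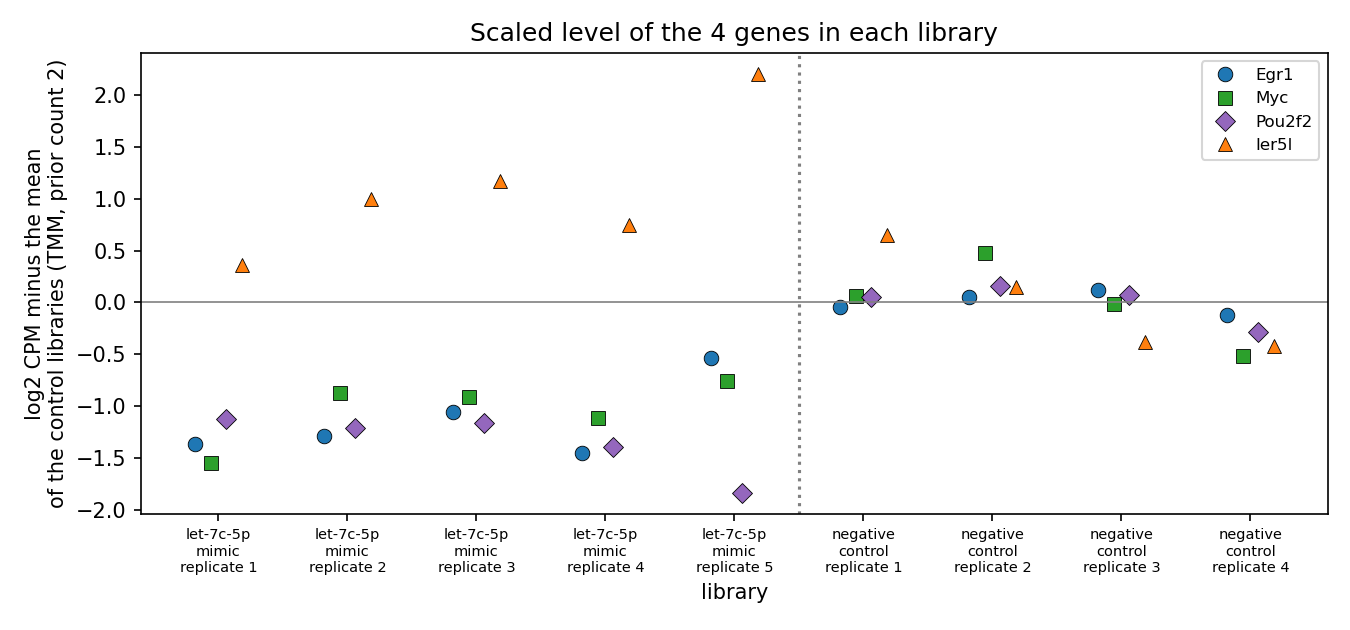
Level of each gene in each library after TMM scaling, as log2 CPM minus the mean of the control libraries, with the mimic libraries left of the dotted line and the control libraries right of it. The 3 lower genes lie between -1.83 and -0.53 in the mimic libraries, and Ier5l lies between 0.37 and 2.20 there, with control replicate 1 at 0.65.

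Mimic replicate 5 is the library in which the 4 genes parted most. On the scaled log2 axis Egr1 lay 0.60 and Ier5l 1.11 above their mimic group means there, Myc 0.29 above, and Pou2f2 0.49 below. The same library had the largest share of Gm10123 and Rpl17 counts, 71.2%. The part of that share in these deviations was not tested.

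Ratios between genes within a library do not depend on how libraries are scaled. There were 8 to 16.6 Egr1 counts per Ier5l count in the mimic libraries, against 33.7 to 80.5 in the control libraries. The means were 11.9 ± 3.10 with the mimic (SD, n = 5) and 59.1 ± 20.5 in the control (SD, n = 4), a log2 difference of -2.28 ± 0.32 (SE). The lowest control value was in control replicate 1, the library with the fewest Egr1 counts and the most Ier5l counts of its group. The ratio of Pou2f2 to Ier5l was 7.39 ± 3.75 with the mimic (SD, n = 5) and 37.3 ± 11.1 in the control (SD, n = 4). The ratio of Myc to Ier5l was 0.61 ± 0.16 with the mimic and 2.82 ± 0.83 in the control. None of these 3 ratios overlapped between the groups. That follows from the counts: Egr1, Pou2f2 and Myc were lower and Ier5l higher in each mimic library than in each control library. The separation of the ratios therefore adds nothing to the counts.

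Among the lower genes the proportions overlapped between the groups. There were 15.8 to 24.4 Egr1 counts per Myc count in the mimic libraries and 15.3 to 27.4 in the control libraries, a log2 difference of -0.06 ± 0.22 (SE). For Egr1 per Pou2f2 count, the mimic libraries had 1.32, 1.49, 1.68, 1.51 and 3.85 and the control libraries 1.45, 1.45, 1.61 and 1.74. Apart from mimic replicate 5, the 2 groups covered much the same range. The log2 difference was 0.21 ± 0.29 (SE) over all libraries and -0.06 without mimic replicate 5, so that library set its sign. The ratio of Pou2f2 to Myc was 11.6 ± 4.39 with the mimic and 13.4 ± 2.19 in the control. These intervals are wide, and they do not show that the 3 genes changed by the same amount.

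**Figure D3:**
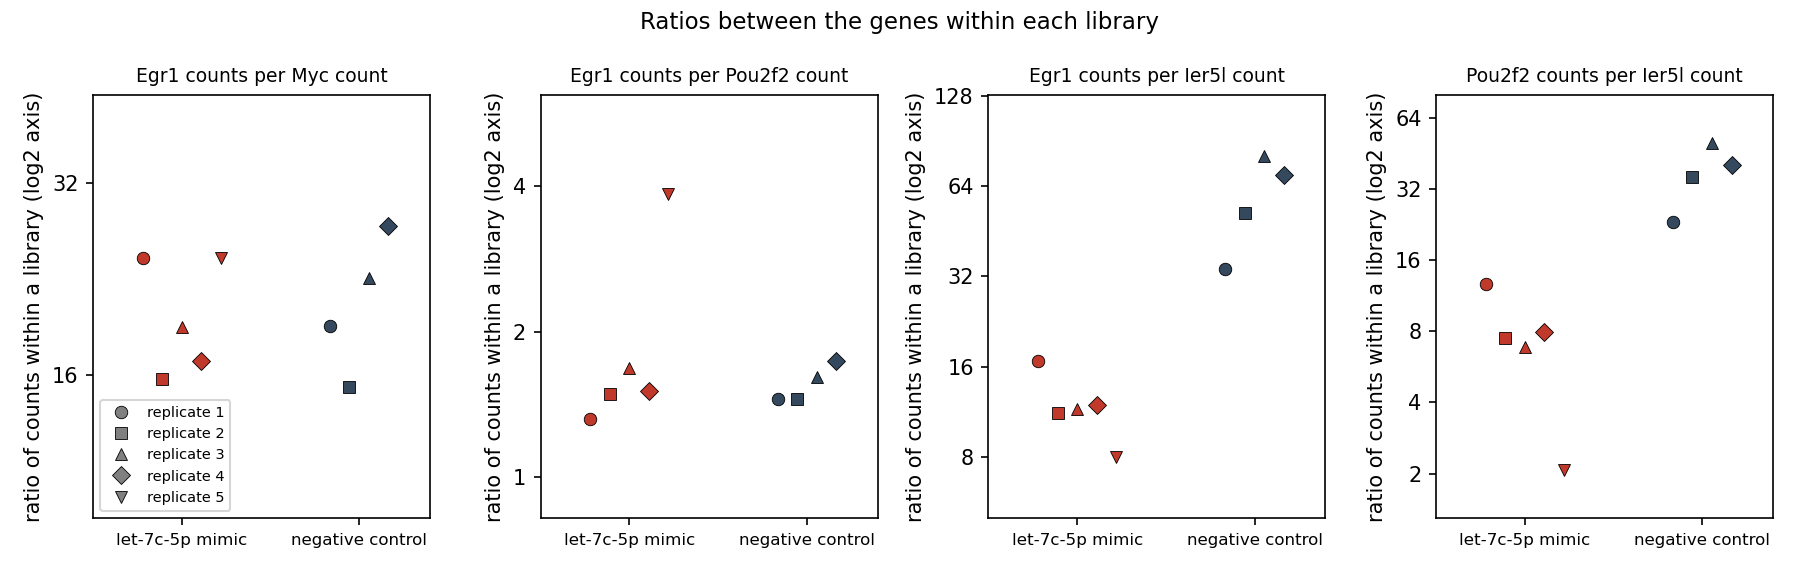
Ratio of the counts of pairs of genes within each library, on log2 axes, one symbol per library, let-7c-5p mimic left and negative control right. Egr1 per Myc and Egr1 per Pou2f2 overlap between the groups. For Egr1 per Pou2f2, mimic replicate 5, at 3.85, lies far above the control libraries, and mimic replicate 1, at 1.32, lies below them. Both ratios to Ier5l lie lower in each mimic library than in each control library.

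Per kilobase of annotated exon, the order of the levels differed between the groups at its lower end. In TMM-scaled counts per kilobase, Egr1 was highest, with 189 ± 53.3 in the mimic group (SD, n = 5) and 405 ± 30.4 in the control group (SD, n = 4). Pou2f2 followed with 56.2 ± 10.4 in the mimic group and 142 ± 17.8 in the control group. Ier5l had 29.6 ± 16.7 in the mimic group and 12.7 ± 4.91 in the control group. Myc had 15.6 ± 3.22 in the mimic group and 33.3 ± 9.38 in the control group. With the mimic, Ier5l thus ranked above Myc, although their libraries overlapped (15.8 to 58.3 for Ier5l and 10.6 to 18.9 for Myc), and in the control Myc ranked above Ier5l without overlap. In the mimic group Pou2f2 and Ier5l also overlapped, Pou2f2 ranging from 39.4 to 64.8. Exon lengths were unions over all annotated transcripts, so the long 3′ UTR of Pou2f2 lowers its value if the cells use a shorter form.

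The genes with the most similar profiles were sought among the other 148 tested genes, by the root-mean-square difference of gene-centred log2 CPM over the 9 libraries. For Egr1 these were Acod1, which makes itaconate (0.18), Tnf, the macrophage cytokine (0.21), and Amotl2, an angiomotin family scaffold gene (0.22), while the median over all other genes was 1.05. Acod1 had 696, 629, 674, 859 and 1005 counts in mimic replicates 1 to 5 and 1618, 1688, 1687 and 1951 in control replicates 1 to 4. As with Egr1, its highest mimic library was replicate 5. For Myc the closest were the protease gene Mmp9 (0.24), Amotl2 (0.25) and Tnf (0.25). Mmp9 had a mean of 30.8 ± 6.30 counts with the mimic and 65.8 ± 10.1 in the control.

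For Pou2f2 the closest profiles were Gm37254 (0.17), B230354K17Rik (0.20) and Tnfaip3, the NF-kappaB inhibitor A20 (0.21). Tnfaip3 had 320 ± 63.8 counts with the mimic (SD, n = 5) and 667 ± 121 in the control (SD, n = 4), and it is the other lower gene with a 7mer-m8 site. Gm37254 rests on few counts, 2 to 7 with the mimic and 12 to 17 in the control. For Ier5l the closest were Gm2546 (0.28), Fam20c, a secretory pathway kinase gene (0.30), and Cst7, the protease inhibitor cystatin F (0.30). Fam20c had 710 ± 143 counts with the mimic and 344 ± 28.8 in the control, and Cst7 had 787 ± 72.4 with the mimic and 384 ± 51.0 in the control. These lists mostly reflect the group difference that chose the table, and Tnf and Amotl2 stand among the nearest of both Egr1 and Myc. Between the 4 genes themselves, Egr1 and Myc were closest (0.28), Myc and Pou2f2 differed by 0.41 and Egr1 and Pou2f2 by 0.43, and these 3 lay 1.14 to 1.39 from Ier5l, a distance that restates the opposite directions. With each group's mean removed, Egr1 and Myc were still closest (0.28), Myc and Pou2f2 differed by 0.38, Egr1 and Ier5l by 0.39, Myc and Ier5l by 0.40, Egr1 and Pou2f2 by 0.42 and Pou2f2 and Ier5l by 0.68. Over all 9 libraries, Egr1 thus lay no nearer to Pou2f2 than to Ier5l within groups. That rests largely on mimic replicate 5, where Egr1 lay 0.60 above and Pou2f2 0.49 below the mimic group mean. The order of these within-group distances without that library was not tested.

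**Figure D4:**
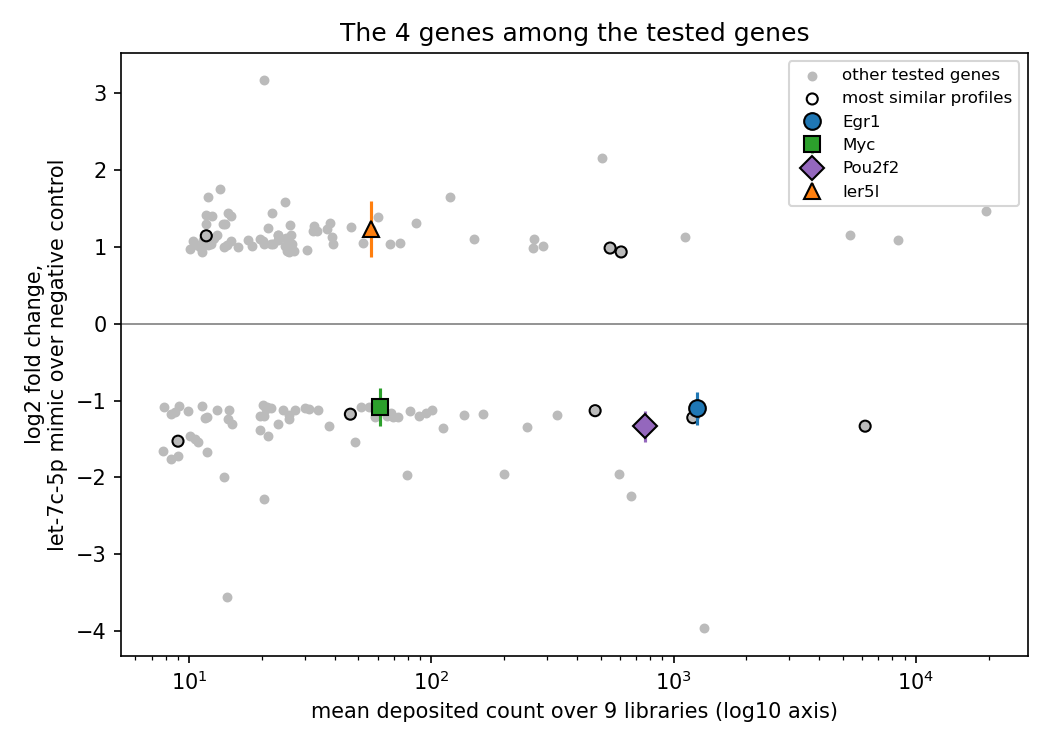
Log2 fold change, let-7c-5p mimic over negative control, against the mean deposited count for the tested genes (grey), with the 4 genes in colour (bars are SE) and the genes of most similar profile circled. No tested gene lies near 0; Egr1 and Pou2f2 lie among the genes with high counts, and Myc and Ier5l have similar counts and opposite signs.

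Few of the genes listed for the surrounding pathways were in the table. Of the 283 different genes in 15 lists, 9 were present, and 8 lists had none. Genes of these lists not in the table were not analysed here. Genes of the table outside the lists were not sorted by pathway, so a list without a gene does not show that such genes are absent. Of the 6 genes of the EGR family and its NAB corepressors only Egr1 was present. None of 42 other listed immediate early genes, such as Fos and Junb, was. Of 18 listed feedback genes of MAP kinase cascades, 2 were present and both were called lower. Dusp8, a phosphatase of MAP kinases, had 32, 26, 29, 105 and 49 counts in mimic replicates 1 to 5, against 79, 140, 95 and 99 in control replicates 1 to 4. The groups overlapped through mimic replicate 4, and the log2 fold change was -1.21 ± 0.35 (SE). Spry4, an inhibitor of receptor tyrosine kinase signalling, had 4 to 12 counts with the mimic and 16 to 22 in the control, a log2 fold change of -1.13 ± 0.37 (SE).

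Of 15 described EGR1 targets, Tnf and Mmp9 were present and both were called lower. Tnf had 3413 to 4313 counts with the mimic and 8094 to 10417 in the control, a log2 fold change of -1.33 ± 0.23 (SE). Of 7 described targets of Oct-2, the product of Pou2f2, only Cd36 was present, and it was called higher, opposite to Pou2f2. Cd36, a scavenger receptor gene described as an Oct-2 target in mouse B cells, had 50, 27, 25, 38 and 34 counts in mimic replicates 1 to 5, against 9, 14, 22 and 21 in control replicates 1 to 4. Its groups did not overlap, and its log2 fold change was 1.03 ± 0.28 (SE). Of 41 other published let-7 targets, Tnfaip3 was present, with a log2 fold change of -1.13 ± 0.17 (SE). Of listed genes, the table held none of 14 Myc partners and relatives, 46 described MYC targets or 12 other POU factors and coactivators. It also held none of 4 other listed IER genes or of 48 other listed macrophage transcription factors. Described MYC targets outside the list may be in the table, since they were not searched for. Each list leaves 0 to 2 genes, against a background of 99.3% of tested genes called, so the counts of calls say nothing about the lists.

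Markers of cell types were as sparse. Of 15 macrophage identity markers and 8 B cell markers, none was in the table, so the labelled cell type could not be checked. Of 15 dendritic cell and osteoclast markers, Itgax was called higher and Mmp9 lower, and their summed counts were 50 to 71 with the mimic and 67 to 92 in the control. Of 10 fibroblast and endothelial markers, Vwf was present, with 19 to 41 counts with the mimic and 12 to 17 in the control. The part of these genes in the results above was not tested.

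Of the 4 genes, Pou2f2 and Ier5l were matched in the RefSeq promoter table, and the promoters of Egr1 and Myc were not analysed here. The windows, from 250 bases before to 50 bases after the start of the gene, are printed because these 2 genes moved in opposite directions. Capitals mark matches to the GC box, GGGCGG, and to the CCAAT box, CCAAT, on either strand.
Pou2f2 (GRCm38.p6 chr7:25132411-25132710, minus strand): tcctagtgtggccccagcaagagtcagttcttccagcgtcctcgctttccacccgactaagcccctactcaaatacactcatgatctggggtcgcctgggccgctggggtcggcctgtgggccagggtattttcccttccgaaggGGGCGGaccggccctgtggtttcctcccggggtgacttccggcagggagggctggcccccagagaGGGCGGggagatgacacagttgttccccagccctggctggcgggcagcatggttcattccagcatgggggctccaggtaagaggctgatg
Ier5l (GRCm38.p6 chr2:30474150-30474449, minus strand): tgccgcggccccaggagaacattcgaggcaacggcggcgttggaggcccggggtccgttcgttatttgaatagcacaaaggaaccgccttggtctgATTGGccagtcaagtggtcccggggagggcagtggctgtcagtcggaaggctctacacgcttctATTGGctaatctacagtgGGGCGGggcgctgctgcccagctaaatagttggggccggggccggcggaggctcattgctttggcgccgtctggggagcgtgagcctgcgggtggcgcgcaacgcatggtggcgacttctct
The GC content was 64% in Pou2f2 and 63.7% in Ier5l, against a median of 52.7% over 32851 promoter windows. The Pou2f2 window held 2 GC boxes, beginning 105 and 40 bases before the start site, and no CCAAT box. The Ier5l window held 2 CCAAT boxes, beginning 154 and 90 bases before the start site, both in reverse orientation, and 1 GC box, beginning 72 bases before it. Of all windows 35.7% held a GC box and 37.4% a CCAAT box, so both elements are common. The Pou2f2 window also held 1 match to an ETS element, CCGGAAG, found in 8.86% of windows. Neither window held the EGR element GCGTGGGCG (0.612% of windows) or GCGGGGGCG (2.91%), the octamer ATGCAAAT bound by Oct-2 (1.74%), the E-box CACGTG bound by Myc and Max (7.15%), the AP-1 element TGANTCA (7.81%) or the cyclic AMP element TGACGTCA (1.79%). The CArG box of serum response factor (1.63%) and the NF-kappaB element (8.46%), searched with their degenerate consensus, were also not found there.

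The direction of each of the 4 genes was the same under each scaling and with each library left out. With scaling by column totals, in which Gm10123 and Rpl17 weigh most, the log2 fold changes were -1.50 for Egr1, -1.40 for Myc, -1.61 for Pou2f2 and 0.81 for Ier5l. With totals that leave out Gm10123, Gm6061 and Rpl17 they were -0.71, -0.66, -0.88 and 1.62. The median of the tested genes shifted by -0.39 and 0.42 under these scalings. Relative to that median Egr1 lay at -2.03 with TMM, -2.04 with column totals and -2.06 without the 3 genes. No tested gene lies near 0, so the median itself is not steady. It was -0.81 without mimic replicate 2, -0.74 without mimic replicate 3 and 0.03 without mimic replicate 4, which put Egr1 at -0.13, -0.21 and -1.01 from it and Ier5l at 2.23, 2.13 and 1.35, against 0.30 with all libraries. The log2 fold change of Egr1 itself was -0.94, -0.95 and -0.98 in these 3 settings, against -1.10 with all libraries, so mainly the median moved. Between the scalings above, the size of each fold change differed, while the ratios between genes do not depend on scaling.

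**Figure D5:**
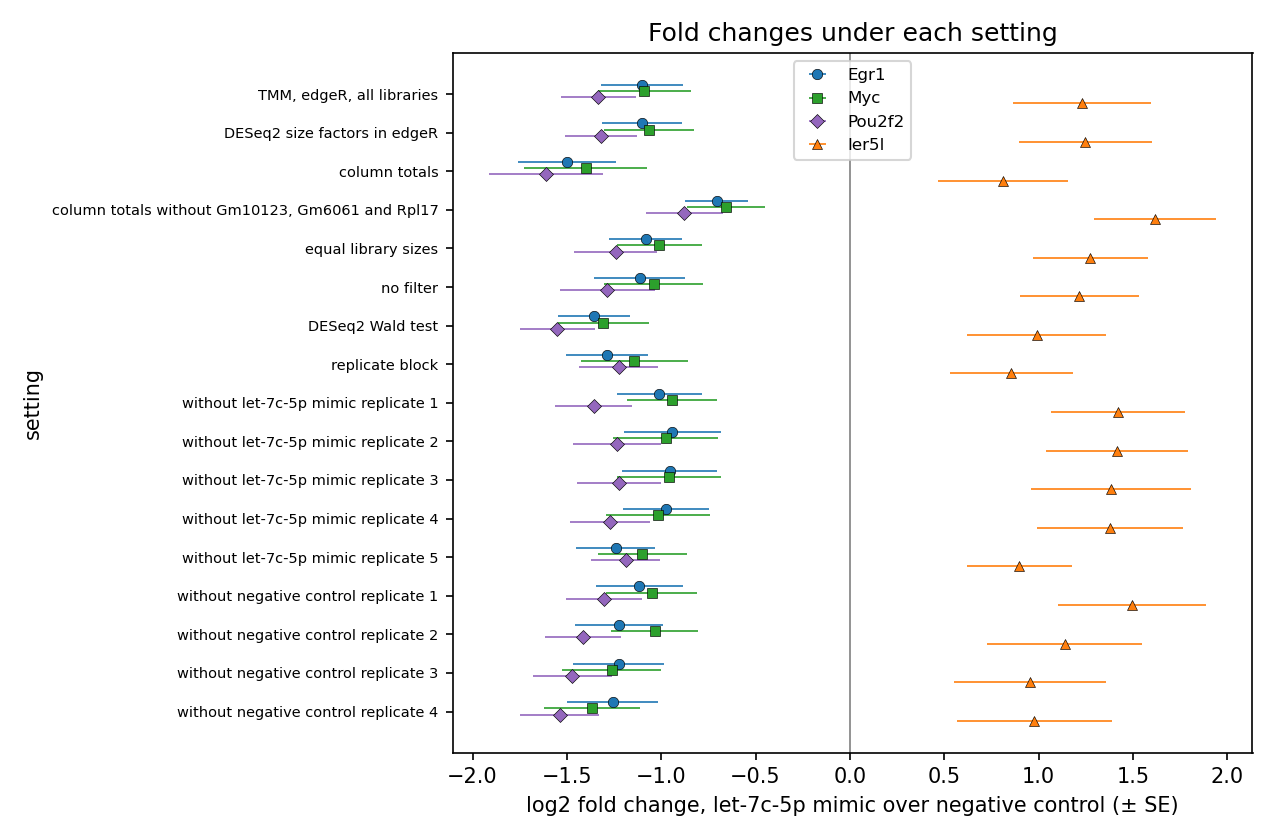
Log2 fold change, let-7c-5p mimic over negative control, of Egr1, Myc, Pou2f2 and Ier5l under each setting, from TMM scaling with all libraries at the top through other scalings, filters and tests to each library left out; bars are SE. Egr1, Myc and Pou2f2 lie below 0 and Ier5l above 0 in each of the settings drawn.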

How the data were processed

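The authors deposited whole-number read counts per gene, one column per library and not normalized. Per the submitters' processing notes, FastQC 0.11.9, HISAT2 2.1.0, HTSeq 0.11.2, R 4.3.2 and DESeq2 1.4.2 were used. For the genome build, annotation, strand setting and choice of the 311 genes: not given in the sources used here. Without strand, reads of overlapping antisense genes cannot be told apart. Of Egr1, Myc, Pou2f2 and Ier5l, Pou2f2 alone overlapped an annotated gene on the opposite strand, D930028M14Rik. It shared 0 of the 8243 exon bases of Pou2f2. 1 row had no symbol.

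Counts of the 5 mimic and 4 control libraries were fitted across the whole table with edgeR 4.0.16 in R 4.3.3 (TMM, filterByExpr with a minimum count of 10, quasi-likelihood test, group as the only term), with Benjamini-Hochberg adjustment at 0.05. The SE of a log2 fold change is its size over the square root of F. Simulated data with known changes were used to check the edgeR step. P-values measure only the spread between these libraries. DESeq2 1.42.0 was an alternative. Profiles used log2 CPM with a prior count of 2.

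The 4 genes and the gene lists were chosen with earlier results of these data known. Text names the 4 genes, listed genes in the table, the 3 nearest profiles per gene, and the genes with 7mer-m8 or 8mer sites. Of 4 pairs of libraries with the same replicate number, 0 had deviations from their group means that correlated above 0.1. With few pairs and a table of selected genes, whether the libraries were paired stays unknown. No other gene had a transcript at least 95% identical over 300 bases to one of the 4.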

Additional observations from a re-analysis of the deposited data

Results flagged for a closer look

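In 2 of the 8 sets of replicates of the 4 genes, 1 library stood apart by Dixon's rule, both times mimic replicate 5. The rule sets the gap to the next library over the range against a limit, 0.71 in the mimic group. It gave 0.792 for Egr1 and 0.714, just over the limit, for Ier5l. Chance gives about 1 in 20 such sets where they are independent, and these sets share libraries. Egr1 had 1048 counts in mimic replicate 5, against 759 to 819 in the other mimic libraries. Ier5l had 131 counts in mimic replicate 5, against 47 to 71 in the other mimic libraries. Without that library the log2 fold change was -1.24 ± 0.21 (SE) for Egr1 and 0.90 ± 0.28 (SE) for Ier5l.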

How the results depend on the processing

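None of the 4 genes changed direction under the alternatives run, which their selection for a difference on these libraries makes likely. Of 123 alternative values, 114 stayed within the spread between replicates, or within 1.5 times for counts of genes. That spread is the SD of single libraries within groups, and leaving out a library shifts a group mean by less. For the ratios between genes, staying within it was thus fixed in advance, and for the fold changes nearly so. The 114 therefore says little about how steady the values are when a library is left out. With column totals Egr1 was -1.50 and Pou2f2 -1.61 (log2), and 30 genes were called higher against 76. With totals lacking Gm10123, Gm6061 and Rpl17, Egr1 was -0.71, Myc -0.66 and Pou2f2 -0.88. No filter gave 170 genes higher and 141 lower, and the DESeq2 Wald test gave 141 lower, against 72 lower. Both test 311 genes in place of 149. The median log2 fold change over the 311 genes was 0.77 with DESeq2 and 1.01 with edgeR without the filter. Over the 149 genes it was 0.93. Leaving out each library gave -1.26 to -0.94 for Egr1, -1.37 to -0.94 for Myc, -1.54 to -1.19 for Pou2f2 and 0.90 to 1.49 for Ier5l. It gave 65 to 82 genes higher and 66 to 82 lower. The log2 difference in Egr1 counts per Ier5l count was -2.53 to -2.11, per Myc count -0.21 to 0.07, and per Pou2f2 count -0.06 to 0.32. With the replicate number as a block, the values were -1.29 for Egr1, -1.14 for Myc, -1.23 for Pou2f2 and 0.86 for Ier5l, with 72 genes higher and 72 lower. Mimic replicate 5 has no control library of its number, so in that fit it does not inform the group difference. Of 4 mimic libraries, 0 correlated best with their own number. Myc and Ier5l rest on at most 131 counts per library, which limits their precision.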
